A study of Rattus norvegicus with 24 samples.

Results

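The comparison described here is the response of the plantaris muscle to 14 days of overload in rats of the HRT line, measured in 12 of the 24 libraries of the series. HRT rats come from a line bred for a high gain in running capacity with endurance training, and LRT rats, the other 12 libraries, from one bred for a low gain. All rats were females of 14 months and generation 19. In the HRT overload group (6 libraries) the gastrocnemius and soleus of one leg had been ablated, and the plantaris was collected after 14 days. The HRT control group (6 libraries) is labelled as control, and the labels do not say whether its muscles came from other animals or from the unoperated leg. Nor do they state that the libraries of a group came from separate animals, so a p-value here speaks only of the spread over the sampled libraries.

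The plantaris is a calf muscle that extends the ankle together with the gastrocnemius and soleus. Removing these synergists leaves it to carry their load, and it is known to enlarge, with remodelling of its matrix, entry of immune cells, activation of satellite cells and a shift towards slower fibres. Muscle RNA is dominated by a small set of contractile, metabolic and mitochondrial transcripts, so a change in those alters the share left for all other genes.

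RNA was sequenced as total RNA made into Illumina TruSeq libraries. The 12 HRT libraries held between 26997324 and 34255103 rounded counts. Of 31998 genes, 16661 were tested, and these held 99.95% of the counts. The deposited table gives Ensembl gene IDs without names, and 0 of the IDs matched the RefSeq table of names. For that reason 4 genes are given by ID, 2 that rose and 2 that fell, and the others are described as groups. The marker genes of muscle fibres and of immune, vascular, fat and nerve cells could not be looked up, so the tissue label was not checked against its markers and no pathway is named. The RNA integrity number (RIN) was higher after overload, at 8.6 to 9.4 against 8 to 8.6 in control (difference 0.7, exact permutation p = 0.00649, two-sided).

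Overload changed the level of 10523 genes in HRT muscle, 63.2% of those tested (edgeR quasi-likelihood test, Benjamini-Hochberg adjusted p under 0.05). Of these 5319 rose, 31.9% of the genes tested, and 5204 fell, 31.2%. The 2 directions differed in size. By more than 2-fold, 2554 genes rose (15.3% of those tested) and 530 fell (3.18%). By more than 4-fold, 805 rose (4.83%) and 35 fell (0.21%). In this whole-muscle RNA, fewer cells of a type and less RNA per cell cannot be told apart.

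The largest rise by fold was sought among genes called, with a mean log2 CPM of 1 or more and no overlap between groups. It was that of ENSRNOG00000002548. In CPM, the counts of a gene after scaling every library to the same size, its 6 control libraries lay between 0.0688 and 0.35, with a mean of 0.227 ± 0.116 (SD, n = 6). These levels rest on 2 to 11 counts per library. After overload the 6 libraries were at 596, 575, 13.8, 24.5, 212 and 242 CPM in replicates 1 to 6, with a mean of 277 ± 257. The groups did not overlap, which the choice of the gene required. Overload replicates 3 and 4 lay far below the other overload libraries. On the log2 scale the rise was 10.21 ± 1.12 (SE; edgeR adjusted p = 1.34e-07). It was 9.24 with limma-voom (adjusted p = 0.00192) and 11.58 with RIN as a covariate (edgeR adjusted p = 4.14e-07), with a range of adjusted p over all 25 alternatives of 6.31e-41 to 0.326. Its rank by abundance was between 15485 and 18545 in the control libraries and between 122 and 6554 in the overloaded ones.

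ENSRNOG00000003357 gained more CPM than any other gene called. Its control libraries were at 424, 292, 273, 247, 361 and 493 CPM in replicates 1 to 6 (mean 348 ± 95.6). The overload libraries were at 11630, 9695, 4022, 5626, 6431 and 8843 CPM (mean 7708 ± 2834). The lowest overload library, replicate 3, lay far above the highest control library. On the log2 scale it rose by 4.47 ± 0.295 (SE; edgeR adjusted p = 3.2e-11), or 22.1-fold. In control muscle it ranked between 199 and 414 by abundance, and after overload between 6 and 24. Its mean share of all counts went from 0.0327% to 0.914%.

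Among falling genes, ENSRNOG00000016043 had the largest fall by fold under the same conditions. Its control libraries were at 228, 162, 273, 191, 151 and 158 CPM (mean 194 ± 48.2). The overload libraries were at 13.7, 24.4, 37.5, 26.3, 45.1 and 24.2 CPM (mean 28.5 ± 11.1). The groups did not overlap, again as the choice required, and here overload replicate 1 was the lowest library. The log2 fold change was −2.76 ± 0.229 (SE; edgeR adjusted p = 1.2e-09), a 6.79-fold fall.

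ENSRNOG00000049695 lost more CPM than any other gene called. It was the most abundant or second most abundant gene in each of the 12 libraries. Its control libraries were at 97124, 90290, 73514, 62888, 88646 and 83954 CPM (mean 82736 ± 12486). The overload libraries were at 37337, 37751, 65862, 66031, 50779 and 37160 CPM (mean 49153 ± 14001). Overload replicates 3 and 4 were above control replicate 4, so the groups overlapped. The log2 fold change was −0.75 ± 0.158 (SE; edgeR adjusted p = 0.000243), a 1.68-fold fall. Its share of all counts averaged 7.79% in control and 5.56% after overload.

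**Figure D1:**
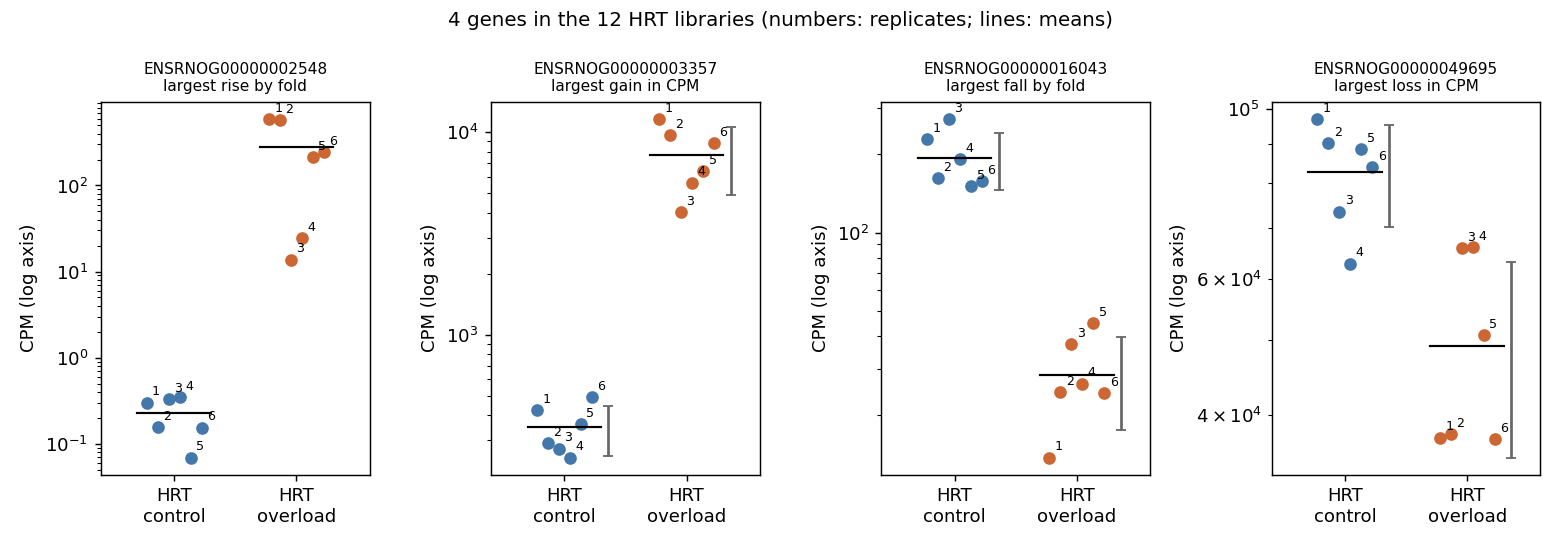
CPM on a log axis of the 4 genes in each HRT library, with points numbered by replicate, black lines at the group means and grey bars for mean ± SD (left out for ENSRNOG00000002548, whose SD is close to its mean after overload). The 2 rising genes and ENSRNOG00000016043 show no overlap between groups. For ENSRNOG00000002548 and ENSRNOG00000016043 this was a condition of their choice. Overload replicates 3 and 4 of ENSRNOG00000049695 lie within the control range.

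The genes that moved most shared this pattern across libraries. Under the same conditions, which include no overlap, the 10 genes with the largest rises had fitted log2 fold changes of 6.33 to 10.21. Their mean levels were 0.0227 to 18.7 CPM in control and 7.41 to 2841 CPM after overload. Of these 10 genes, 2 had at most 3 counts in each control library, and their fitted folds depend on the prior count of the fit. Overload replicate 1 had the highest level for 9 of the 10, and replicate 3 or 4 the lowest for 5 and 4. The 10 genes with the largest falls under these conditions changed by −2.76 to −1.98 on the log2 scale (edgeR adjusted p between 5e-11 and 1.45e-05). Their control means were 5.73 to 206 CPM and their overload means 1.38 to 49.9 CPM. For these, overload replicate 1 was lowest in 6 genes, and replicates 3 and 4 were highest in 5 and 3.

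The 5 genes with the largest gains in CPM went from means of 18.7 to 348 CPM in control to means of 2020 to 7708 CPM after overload. Together they took 2.46 percentage points more of the library counts. The 5 genes with the largest losses had control means of 15088 to 82736 CPM and fell 1.38-fold to 2.19-fold. Together their share of the counts fell by 5.87 percentage points. The 5 losses were modest as folds and larger as shares of the library than the 5 gains.

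With the scaling used here, by trimmed mean of M values (TMM), rises outnumbered falls among scarce genes and falls outnumbered rises among abundant ones. The tested genes were divided into 10 classes of 1666 or 1667 genes by their mean level over all 24 libraries. In the least abundant class, 30.1% of genes rose and 10.2% fell. Scarce genes could pass the filter through the group where they were high, and the part of the filter in these shares was not tested. Rises were most frequent in the fourth class (2.82 to 5.13 CPM), at 41.5% of genes against 20.5% that fell. Falls outnumbered rises from the seventh class upward (from 13.5 CPM). In the most abundant class (from 70.03 CPM), 15.5% rose and 62.8% fell, and the median log2 fold change was −0.35, against 0.22 in the least abundant class. Rises of over 2-fold numbered 414 in the least abundant class and 114 in the most abundant one. Falls of over 2-fold were most numerous in these same 2 classes, at 95 and 98 genes, against 24 in the sixth class.

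**Figure D2:**
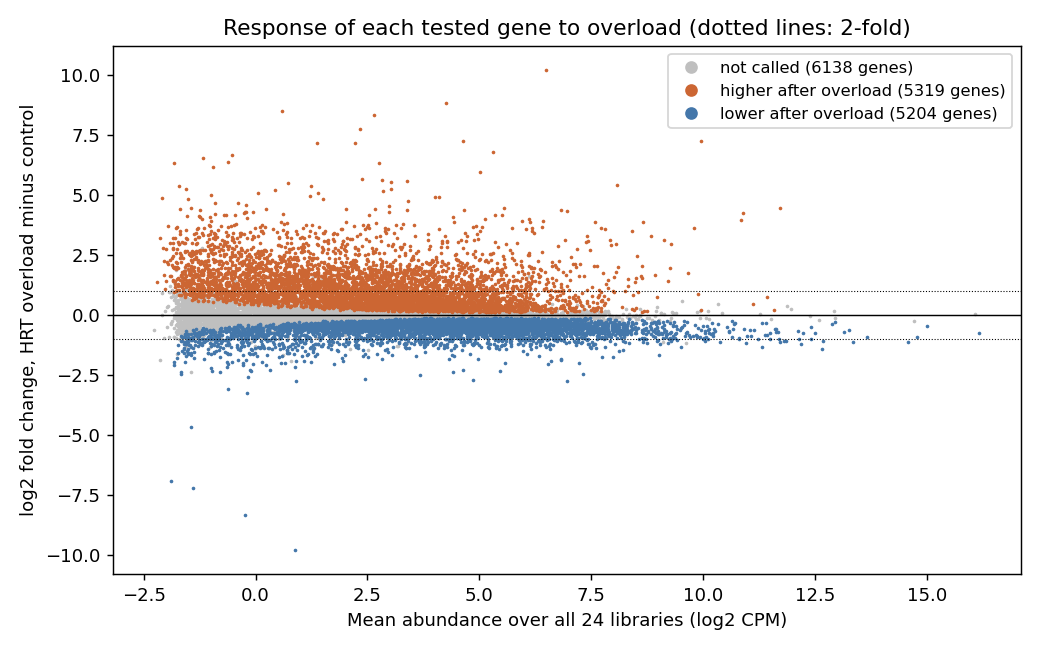
Each point is 1 of 16661 tested genes, with its mean abundance over the 24 libraries in log2 CPM on the x axis and its log2 fold change (HRT overload minus control) on the y axis. Points far above the upper 2-fold line are found at all but the highest abundances, and the most abundant genes lie mostly below 0.

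**Figure D3:**
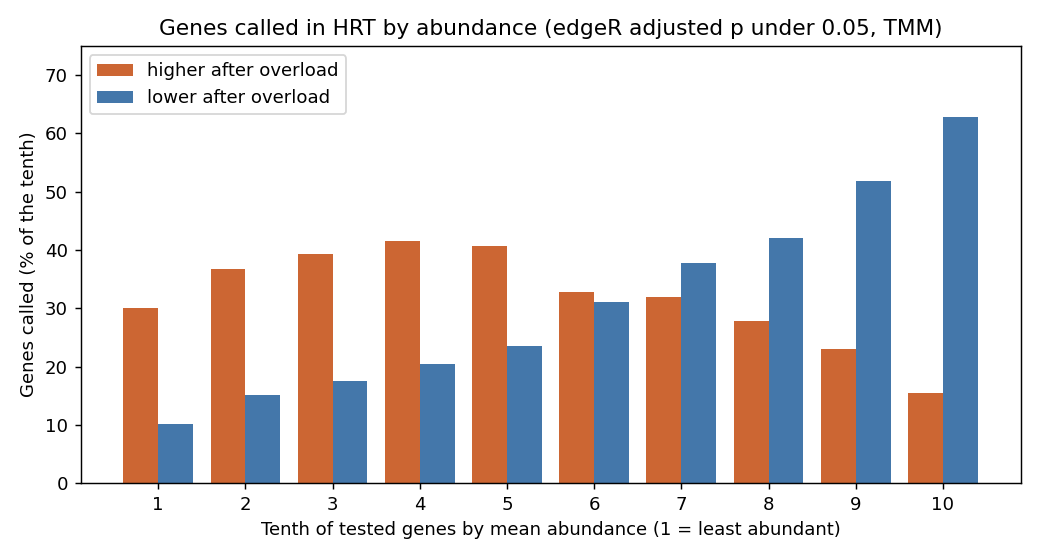
Share of genes called higher (orange) or lower (blue) after overload in HRT with TMM scaling, in percent of each of 10 abundance classes from least (1) to most abundant (10). The share that fell climbs from 10.2% to 62.8%, and the share that rose goes from 30.1% through a peak of 41.5% in class 4 down to 15.5%.

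The split between rises and falls depends on how libraries are scaled. With TMM the median tested gene moved by −0.02 on the log2 scale. With libraries scaled by their totals alone the median gene moved by 0.27, 7942 genes were called higher and 2238 lower, and 78.0% of calls were rises, against 50.5% with TMM. The 5319 genes that rose after TMM were all called higher under totals as well. Of the 5204 that fell, 2238 were also called lower, 2932 were not called and 34 were called higher. By more than 2-fold, 2554 genes rose and 217 fell under both scalings. Totals moved the fold changes upward, so the shared calls among rises were close to fixed in advance. Under totals the falls outnumbered the rises in the most abundant class alone, at 38.8% against 30.2%, and in the other 9 classes the rises were the more frequent. The median log2 fold change under totals was 0.51 in the least abundant class and −0.06 in the most abundant one. A change of scaling moves all genes of a library by the same factor. The trend with abundance was thus bound to remain and has no support from the second scaling. The class where the median crosses 0 was not the same. The 4 genes given by ID kept their direction and their call, with log2 fold changes under totals of 10.59, 4.80, −2.49 and −0.49 in the order given above (edgeR adjusted p between 1.6e-10 and 0.000685).

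Fewer genes dominated the RNA pool in control muscle than in overloaded muscle. In the control libraries the most abundant 59 to 65 genes held 50% of the counts, and in the overload libraries 80, 89, 106, 141, 166 and 167 genes did. The groups did not overlap (two-sided exact permutation p = 0.00216, which is the lowest value possible with 6 libraries a side, and 0.00303 after adjustment over 7 library measures). To hold 90% of the counts took 3398 ± 35.2 genes in control (SD, n = 6) and 4331 ± 407 after overload (exact permutation p = 0.00216). The share of the 100 most abundant genes was 54.7% ± 0.365 of the counts in control and 48.4% ± 2.87 after overload (exact permutation p = 0.00216). Genes with at least 1 count numbered 20297 to 20754 in control and 20942 to 21901 after overload.

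**Figure D4:**
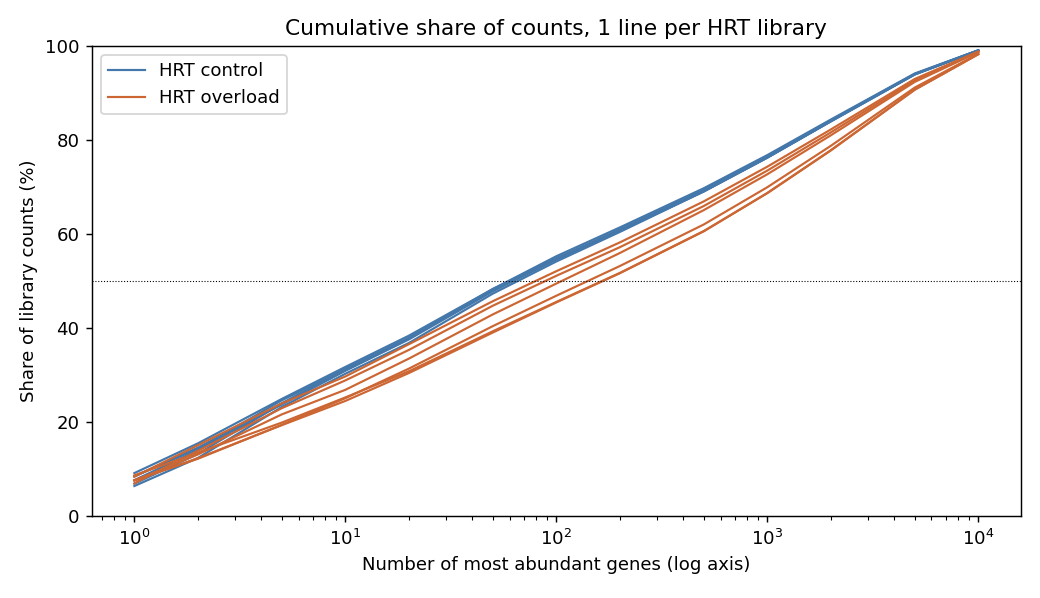
Cumulative share of library counts (%) held by the most abundant genes, by number of genes on a log axis, with 1 line for each HRT library. From 100 genes on, the 6 control lines nearly coincide and the overload lines lie below them. At 100 genes the overload libraries held 45.5% to 52.1%, and replicates 2 and 6 nearly coincided (45.6% and 45.5%).

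The set of most abundant genes was itself exchanged in part. Of the 100 genes with the highest mean level in control muscle, 80 were also among the 100 highest after overload. Of those 100 genes of control muscle, 81 fell and 3 rose (edgeR, with 31.2% and 31.9% of all tested genes falling and rising). In the most abundant class of tested genes 62.8% fell and 15.5% rose. With scaling by totals 66 of the 100 fell and 9 rose, against 38.8% and 30.2% in that class. Over all 16661 tested genes, totals gave 2238 falls and 7942 rises. Of the 20 genes that entered, 16 rose and 0 fell past the threshold, and 11 rose by more than 4-fold. With scaling by totals 19 of the 20 rose. The entrants had a median log2 fold change of 3.04 and held 0.701% of the counts in control and 4.36% after overload. Of the 20 that left, 19 fell, with a median log2 fold change of −0.86, and their share of the counts went from 2.28% to 1.52%. The 100 genes of control muscle, entry and exit were read from the same libraries as the calls, so these counts are a description.

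Genes near silence in control muscle were few among those tested. With at most 3 counts in each HRT control library there were 52 genes, of which 51 rose. These genes could pass the filter on low counts only through other groups, so this count was fixed in part by the filter. Most stayed at low levels, with a median of the overload means of 0.585 CPM and a highest mean of 8.85 CPM, and 3 counts correspond to about 0.101 CPM. Of the 51 genes, 20 still had at most 3 counts in at least 1 overload library, and 1 was above 1 CPM in all 6.

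In the opposite direction, 4 genes that fell had 0 counts in every overload library. Of these, 2 also had 0 counts in 3 of the 6 control libraries, and 2 were detected in all 6. Their control counts, where above 0, ran from 7 to 340, and each had counts in at least 1 LRT overload library. Estimated counts divide ambiguous reads between similar genes, and whether this sets the zeros was not tested.

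The groups separated completely in part of the tested genes. The 6 overload libraries did not overlap with the 6 control libraries in 6405 genes, 38.4% of those tested, of which 3563 were higher after overload (21.4%) and 2842 lower (17.1%). The shares by fold are of genes called, with calls and folds from these same libraries, so they are a description. Among genes that rose by up to 1.41-fold, 478 of 1237 showed no overlap. Among those that rose between 2-fold and 4-fold it was 1430 of 1749 (81.8%), between 4-fold and 8-fold 87.0%, between 8-fold and 16-fold 84.4%, and above 16-fold 69 of 76. Among genes that fell by up to 1.41-fold it was 1051 of 2715, between 2-fold and 4-fold 374 of 495, between 4-fold and 8-fold 23 of 28, between 8-fold and 16-fold 2 of 2, and above 16-fold 3 of 5.

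Most genes varied more among the overloaded libraries than among the controls. Over the 12463 tested genes whose mean log2 CPM was 1 or more, the SD of log2 CPM within a group had a median of 0.131 in control and 0.209 after overload. The overload SD was the larger one for 72.3% of these genes. It exceeded the control SD more than 2-fold in 4138 genes, and the reverse held in 555. Among genes of this abundance the excess was wider in those that changed strongly than in those not called. In genes that fell by more than 2-fold the median SD was 0.183 in control and 0.418 after overload. In genes that rose by more than 2-fold it was 0.225 and 0.387, and by more than 4-fold 0.314 and 0.623. Over all genes called, of any fold, it was 0.110 and 0.223 in those that fell and 0.163 and 0.242 in those that rose. In genes not called it was 0.137 and 0.169. These medians describe the genes, and no test was made over genes. Taken pair by pair, the wider spread lay between some overloaded libraries and not others. The root mean square difference in log2 CPM over the tested genes was 0.48 to 0.526 in the 15 pairs of control libraries. Among overload replicates 1, 2 and 6 it was 0.39 to 0.459, below each control pair, and among replicates 3, 4 and 5 it was 0.492 to 0.515, within the control range. In the 9 pairs that join one of replicates 1, 2 and 6 with one of replicates 3, 4 and 5 it was 0.545 to 0.705, above each control pair. The chi-square per degree of freedom of the same pairs, also used to look for duplicate libraries, gave another picture within the 2 sets. It is an unlike measure, taken on counts scaled by library totals over the genes past a count cut in each pair. The root mean square difference used TMM-scaled levels. The chi-square measure was at most 35.4 in control pairs. Among replicates 1, 2 and 6 it was 22.5 to 29.7, within the control range. It was 28.8 for replicates 3 and 4. For replicates 4 and 5 it was 38.8 and for replicates 3 and 5 57.1, above each control pair. In the 9 joining pairs it was 69.1 to 193, again above each control pair.

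The same libraries lay at the ends for most strongly changed genes. Among the 2554 genes that rose by more than 2-fold, overload replicate 1 was the highest overload library in 41.6% and replicate 6 in 35.8%. Replicate 3 was the lowest in 46.9% and replicate 4 in 34.0%. Among the 530 genes that fell by more than 2-fold the order was turned over, with replicates 4 and 3 highest in 37.4% and 35.5% and replicate 1 lowest in 41.3%. Among the 6138 genes not called, each overload library was highest in 12.5% to 19.2% and lowest in 14.5% to 21.4%.

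Measured as a share of the library, the genes that rose by more than 2-fold held 1.86% ± 0.0947 of the counts in control (SD, n = 6). In overload replicates 1 to 6 they held 15.3%, 14.0%, 5.92%, 6.66%, 8.66% and 13.0%. Replicates 1, 2 and 6 were thus at 13.0% or more, and replicates 3, 4 and 5 at 8.66% or less. The genes that fell by more than 2-fold held 11.4% ± 0.346 in control and 4.84%, 5.36%, 7.59%, 7.28%, 6.19% and 5.53% after overload. The genes were chosen from these libraries, so the gap between groups is a description. RIN in overload replicates 1 to 6 was 8.6, 8.6, 9.4, 8.9, 9.1 and 9.2. Its part in the spread was not tested.

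To read the spread with genes not chosen for their change in HRT, genes were taken from a fit to the 12 LRT libraries alone. In that fit 2026 genes rose by more than 2-fold, and 1986 of them were also tested in a fit to the 12 HRT libraries alone. The count filter of the HRT fit read HRT libraries, and a gene scarce in HRT control could pass it through HRT overload. The part of that filter in the counts below was not tested. In the HRT fit 1922 of the 1986 genes rose and 0 fell, where 32.2% of all genes tested rose and 30% fell. Of the 139 genes that fell by more than 2-fold in LRT, 131 were tested, of which 119 fell and 0 rose in HRT. The median log2 fold change in HRT was 1.66 for the rising list and −1.36 for the falling list, against −0.02 over all genes tested. Changes of more than 2-fold in both lines numbered 1749 upward and 108 downward. The upward ones were 88.1% of the LRT list tested and 74.2% of the 2357 such genes in the HRT fit. The downward ones were 82.4% of the 131 genes of the LRT list and 23.7% of the 456 in the HRT fit. The lists of falls were of unequal length, which limits the second share.

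Read in each HRT library, the rising list had a median log2 difference from the control mean of 1.79, 1.78, 1.19, 1.28, 1.43 and 1.95 in overload replicates 1 to 6. The 6 control libraries lay between −0.05 and 0.09. The falling list was at −1.83, −1.58, −1.04, −1.06, −1.16 and −1.69 in the overload libraries and between −0.05 and 0.09 in control. Replicates 1, 2 and 6 were again farthest from control in both lists. The lists were chosen by change in LRT, and HRT libraries entered only through the count filter.

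**Figure D5:**
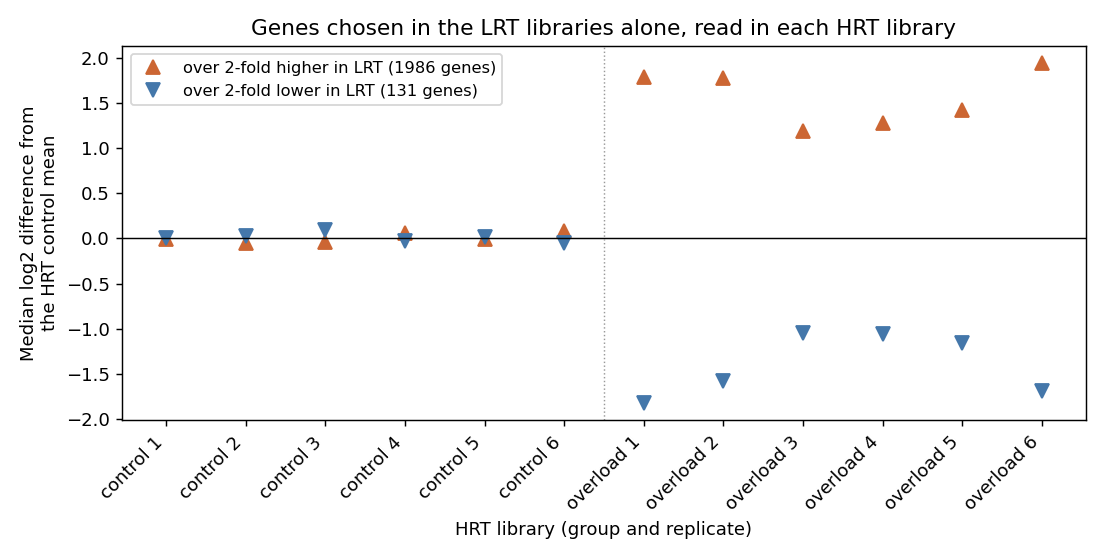
Median log2 difference from the HRT control mean in each HRT library, over 1986 genes that rose (upward triangles) and 131 that fell (downward triangles) by more than 2-fold in the LRT libraries. All 6 overload libraries lie above 1.1 for the rising list and below −1.0 for the falling list, and overload replicates 1, 2 and 6 lie farthest out.

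RIN and overload moved together, and 1 RIN value, 8.6, occurred in both groups, in control replicate 3 and in overload replicates 1 and 2. Between these 3 libraries, 2548 of the 2554 genes that rose by more than 2-fold were higher after overload, with a median log2 difference of 1.78. Of the 530 genes that fell by more than 2-fold, 523 were lower, with a median of −1.54. The genes were chosen from these same libraries, so their direction is a description and supports nothing. Overload replicates 1 and 2 are also among the 3 overload libraries farthest from control in the lists taken from LRT, so these medians do not stand for all 6. With RIN as a covariate 8712 genes were called, 4592 higher and 4120 lower (edgeR).

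The response in HRT was compared gene by gene with that in LRT by a test of the difference between responses. Of the 16661 genes, 8 passed (0.048%; edgeR adjusted p under 0.05), 4 with the higher response in HRT and 4 with the lower, and 2265 had an unadjusted p under 0.05. A gene that did not pass is not thereby shown to respond alike in both lines. Of the 2554 genes that rose by more than 2-fold in HRT 1 passed, and of the 530 that fell by more than 2-fold 2 passed. DESeq2's Wald test gave 140 genes, and the edgeR count ran from 1 to 25 as single HRT libraries were left out.

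None of the 4 genes given by ID passed that test. The responses in HRT minus those in LRT were 2.06 ± 1.91 for ENSRNOG00000002548 (SE; edgeR adjusted p = 0.653) and 0.63 ± 0.362 for ENSRNOG00000003357 (edgeR adjusted p = 0.441). They were −0.90 ± 0.304 for ENSRNOG00000016043 (edgeR adjusted p = 0.217) and −0.24 ± 0.223 for ENSRNOG00000049695 (edgeR adjusted p = 0.65). ENSRNOG00000003357 went from 364 ± 89.7 to 5186 ± 1810 CPM in LRT (SD, n = 6; edgeR adjusted p = 5.32e-10). ENSRNOG00000016043 went from 220 ± 34.4 to 60.2 ± 14.5 CPM in LRT (edgeR adjusted p = 3.62e-07). The 4 genes were chosen for their change in HRT, so which line had the larger change is not read from them.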

How the data were processed

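Per the labels' protocols, libraries were made from total RNA of homogenised plantaris with an Illumina TruSeq kit. The authors deposited 1 table of estimated counts per gene, not normalized. The submitters' processing notes name Salmon 0.9.1, Rnor_6.0 and rn6. For the annotation and settings, nothing is given in the sources used here.

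Samples were grouped by their labels for line and treatment. After rounding of the estimated counts, 16661 of 31998 genes passed filterByExpr of edgeR (count of at least 10, total of at least 15). TMM scaling and 1 robust quasi-likelihood model over all 24 libraries (edgeR 4.0.16, R 4.3.3) gave the contrasts, adjusted by Benjamini-Hochberg with a threshold of 0.05. Each standard error was taken as the size of the log2 fold change divided by the root of F. CPM are TMM-scaled, log2 CPM used a prior count of 2, and shares of counts used library totals.

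The genes given by ID are, among genes called, those with the largest change by fold in each direction (mean log2 CPM of 1 or more, groups not overlapping) and those with the largest gain and loss in CPM. The rule allowed more where names exist and was shortened to 2 IDs in each direction. The 39 gene lists written for pathways and for cell types were not usable without names. Members, lists and rules were chosen with earlier results of these data known.

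The model was tested on simulated counts with 1 dispersion per gene for all groups and few of 16447 genes changed. Changes of 1.5-fold, 2-fold and 4-fold were recovered in 62.7%, 97.0% and 100% of 67, 67 and 66 genes. Of the unchanged genes, 6 were called. The real libraries had far more changed genes and unequal spread, so these shares do not carry over to them. No libraries were duplicates, with a chi-square per degree of freedom of at least 12.0 within groups. The alternatives were limma-voom (limma 3.58.1), the Wald test of DESeq2 1.42.0 and its size factors, scaling by totals, no filter, a filter of 1 CPM in 6 libraries with a mean count of 50, unrounded counts, no robust estimation, HRT libraries alone, RIN as a term, replicate blocks and each HRT library left out. A limma-voom fit with a variance per group was added after the data had been seen.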

Additional observations from a re-analysis of the deposited data

How the results depend on the processing

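Over 25 alternatives the count of genes called in HRT stayed within 1.5 times of 10523 in 24, and the largest was 10623. The replicate numbers gave no sign of pairing: same-numbered control and overload libraries had deviations that correlated between −0.07 and 0.06, and 2 of 6 overload libraries correlated best with their own number. With a replicate block 9525 genes were called. With the replicate block and RIN together 6 genes were called, 6 higher, 6 of them by over 2-fold, and 0 lower (0 by over 2-fold), and the calls of the 4 genes given by ID were lost (edgeR adjusted p 0.0506 to 0.616) although their fitted log2 fold changes were larger in size, at 11.12 (ENSRNOG00000002548), 6.06 (ENSRNOG00000003357), −5.50 (ENSRNOG00000016043) and −1.36 (ENSRNOG00000049695). That fit estimates 6 blocks, overload and RIN from 12 libraries. Over the other 24 alternatives the 4 genes kept their call and direction, with ENSRNOG00000002548 between 9.24 (limma-voom) and 11.58 (RIN as a covariate). Scaling by totals gave 2238 genes lower, 217 by over 2-fold, and the stricter filter gave 293 lower by over 2-fold, with fewer genes tested. With single HRT libraries left out, genes called ran from 9903 to 10623.

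The count for the difference of responses, 8 in the model reported, was 140 (DESeq2 Wald test), 2 (limma-voom), 1 (DESeq2 size factors), 5 (no filter), 5 (no robust estimation), 2 (RIN as a covariate), 1 (replicate block), 0 (replicate block and RIN, with 912 genes at an unadjusted p under 0.05) and 1 (limma-voom with a variance per group). With scaling by totals it was 6, with the stricter filter 12 and with unrounded counts 8. It was 16 and 25 without HRT overload replicates 3 and 4, and between 1 and 5 without each of the other 10 HRT libraries. The cause was not tested. The model shares 1 dispersion per gene over groups of unequal spread. Genes of few counts limit the folds of the largest rises.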
